A study of Saccharomyces cerevisiae with 2 samples.

Results

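Crosslinks of the DEAD-box helicase Dbp2p were examined in the messenger RNAs of 5 heat shock proteins of budding yeast, Saccharomyces cerevisiae. They are HSP82, HSP104 and HSP26, which heat and other stresses induce, and HSC82 and HSP60, which are made in unstressed cells. All rows filed under their systematic names YPL240C, YLL026W, YBR072W, YMR186W and YLR259C were taken, 5 of 2787 listed gene names in replicate 1 and 5 of 3873 in replicate 2. The data are iCLIP: UV irradiation bonds a protein covalently to RNA in contact with it, and reverse transcription stops beside the bond, so that cDNA ends mark crosslinks to the nucleotide. The 2 samples form 1 group. Both came from whole cells of strain BTY140, MATa his3Δ1 leu2Δ0 met15Δ0 ura3Δ0 with DBP2-HTBH:kanMX6, where HTBH is a histidine and biotin tag for pull-down. The cells were grown in YPD, a rich glucose medium, at 30 °C to an OD600 of about 1.0 and were then irradiated. No heat shock was part of the design, neither a second condition nor a background library (untagged or input) was analysed here, and nothing says how the cultures of the replicates were separated. The question asked of these genes is where Dbp2p touched their RNA, and how often in induced and in constitutive genes. With 1 group of 2 libraries there was no test to run, and all values below are descriptions of these libraries.

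Dbp2p unwinds RNA and helps proteins assemble on new transcripts, and it is the yeast relative of the human helicase p68. Heat shock proteins are chaperones, which keep other proteins folded, and the transcription factor Hsf1 drives many of their genes. Hsp90, encoded by the near copies HSP82 and HSC82, finishes the folding of kinases and other clients. HSC82 is made at a high level at all times, and HSP82 is low in growing cells and rises strongly with heat. Hsp104 pulls proteins out of aggregates, and Hsp26 is a small chaperone that binds unfolding proteins and keeps them within reach of Hsp104. Hsp60 is the folding chamber of the mitochondrial matrix, essential at all temperatures, and its gene also responds to heat to a lesser degree.

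For each gene the data list nucleotide positions and the share of the gene's signal at each. These shares sum to 1 in every gene, so they say where in a gene the signal lies and not how much of it there is. The number of listed positions therefore serves to compare how broadly the RNAs were crosslinked. It depends on the level and length of the RNA and on the depth of the library, and read numbers are not given. Replicate 1 holds 8666 positions and replicate 2 holds 18088, a ratio of 2.09. No genome sequence was used here, so single listed bases are given and no stretch of sequence.

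All 5 genes were listed in both replicates, where 37.4% of the 6002 annotated nuclear protein-coding genes were. In replicate 1 45.0% of protein-coding genes were listed and in replicate 2 63.2%. The 5 genes together had 26 positions in replicate 1 and 62 in replicate 2, which is 0.414% and 0.377% of all positions in protein-coding genes. HSC82 had more of them than any of the other 4 genes. None of the positions lay inside another annotated gene.

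HSP82, the inducible Hsp90 gene (chromosome XVI, 96496 to 98625, reverse strand, reading frame of 2130 nt, build sacCer3), had 4 positions in replicate 1 and 13 in replicate 2. All of them lay inside the reading frame. In replicate 1 the signal was spread evenly, with 25% at each of the coordinates 98379, 97064, 96839 and 96680, which are nucleotides 247, 1562, 1787 and 1946 counted from the A of the start codon. In replicate 2 the 13 positions fell into 3 tight groups and 3 single nucleotides, where a group is a chain of positions at most 5 nt apart. The strongest group covered nucleotides 1286 to 1290 (97336 to 97340) and held 52.1% of the signal, of which nucleotide 1286 alone had 31.2%. Nucleotides 2 to 6, which begin inside the start codon, held 20.8%, and nucleotides 356 to 361 held another 20.8%. The single nucleotides 816, 1019 and 1912 had 2.08% each. The replicates thus put the signal of HSP82 in different places. The last of 3 equal parts of the reading frame held 75.0% in replicate 1 and 2.08% in replicate 2. Replicate 1 rests on 4 positions of equal share, which is too coarse to show an even profile.

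HSP104, the disaggregase gene (chromosome XII, 88623 to 91349, forward strand, 2727 nt), had 8 positions in each replicate, all inside the reading frame. In replicate 1 they were scattered from nucleotide 13 (coordinate 88635) to nucleotide 2515 (91137). Nucleotides 664 and 2515 had 20% each, and the other 6 positions had 10% each. In replicate 2 the signal sat at the 5′ end. The 4 positions at nucleotides 27, 30, 31 and 32 (88649 to 88654) held 90.7% of it, with 44.4% at nucleotide 27 and 25.9% at nucleotide 32. The remaining positions, nucleotides 196, 430, 1627 and 2462, held 3.70%, 1.85%, 1.85% and 1.85%. The same number of positions therefore had near-equal shares in replicate 1 and very unequal ones in replicate 2. The smallest share was 10% in replicate 1 and 1.85% in replicate 2. Shares as coarse as those of replicate 1 cannot show whether the profile was flat. The position of replicate 1 nearest to the strong group was nucleotide 13, which lay 14 nt from nucleotide 27.

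HSP26, the small heat shock protein gene (chromosome II, 382030 to 382674, forward strand, 645 nt), had the fewest positions. Replicate 1 listed nucleotide 29 alone (382058), which carries 100% of the signal by construction. Replicate 2 listed nucleotide 86 (382115) with 6.25% and nucleotide 191 (382220) with 93.8%. All 3 lay in the first of 3 equal parts of the reading frame, and no nucleotide was common to the replicates.

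HSC82, the constitutive Hsp90 gene (chromosome XIII, 632355 to 634472, forward strand, 2118 nt), had 10 positions in replicate 1 and 34 in replicate 2. In replicate 1 the strongest was nucleotide 463 (632817) with 28.6%, followed by nucleotide 1550 (633904) with 14.3%. The other 8 positions, from nucleotide 250 to nucleotide 2176, had 7.14% each. In replicate 2 the strongest were nucleotides 20 (632374) and 104 (632458), with 13.0% each, followed by nucleotide 1696 (634050) with 10.7%. Of the 34 positions 25 stood in 7 groups. The largest shares were 22.9% at nucleotides 104 to 109, 19.8% at 18 to 27, 13.7% at 1696 to 1701 and 11.5% at 1912 to 1917. The signal of HSC82 was spread more widely than that of the other genes in replicate 2, with 6 positions needed to reach 50% of it, against 1 to 3 in the others. Taken by part of the reading frame, the replicates were closer here than in HSP82. The first of 3 equal parts held 42.9% in replicate 1 and 53.4% in replicate 2, and the last held 35.7% and 33.6%.

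HSP60, the mitochondrial chaperonin gene (chromosome XII, 663284 to 665002, reverse strand, 1719 nt), had 3 positions in replicate 1 and 5 in replicate 2. In replicate 1, 60% of the signal was at coordinate 663224, 60 nt past the stop codon, and nucleotides 18 (664985) and 288 (664715) had 20% each. The strongest of replicate 2 was nucleotide 1533 (663470) with 50%. Nucleotides 54, 1101, 1512 and 1561 had 12.5% each. The last of 3 equal parts of the reading frame held 75.0% in replicate 2 and 0% in replicate 1, where the strongest position was past the reading frame.

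**Figure D1:**
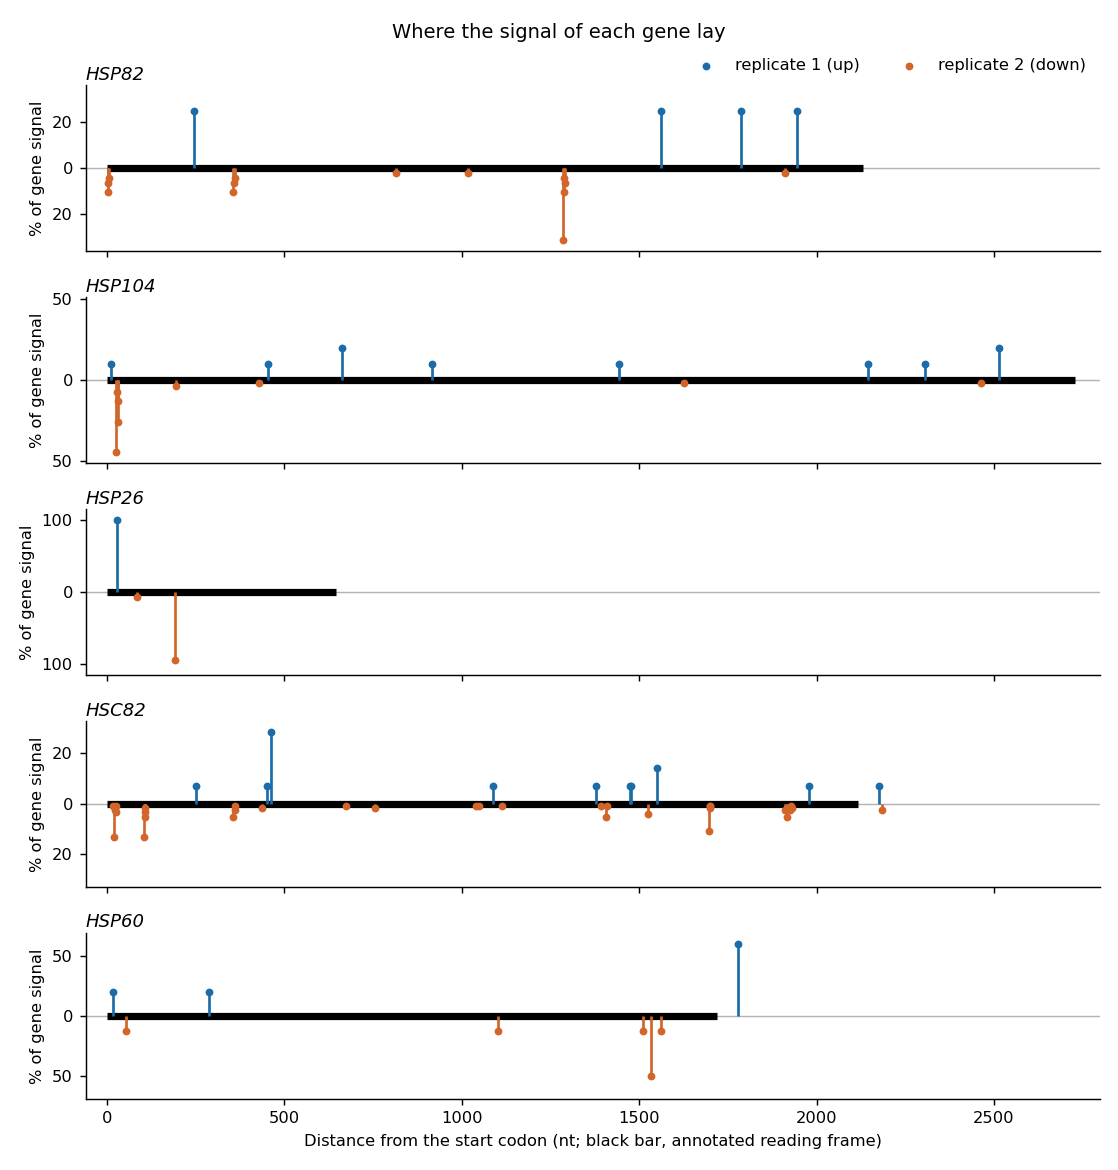
Share of each gene's signal (percent, vertical) by distance from the start codon (nt, horizontal), with replicate 1 drawn upwards and replicate 2 downwards, 1 stem per listed position. In replicate 2 HSP104 has 90.7% of its signal at nucleotides 27 to 32 and HSP82 has 52.1% at 1286 to 1290, while replicate 1 has scattered single positions in both genes.

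The induced genes had fewer positions for their length than the constitutive ones, and that order rested on HSC82. HSP82, HSP104 and HSP26 together had 13 positions over 5502 nt of reading frame in replicate 1, or 2.36 per kb. HSC82 and HSP60 had 13 over 3837 nt, or 3.39 per kb, where 2 of the 13 lay past a stop codon and were counted as well. In replicate 2 the induced genes had 23 positions, 4.18 per kb, and the constitutive ones 39, 10.2 per kb. The log2 ratio of induced over constitutive was -0.52 in replicate 1 and -1.28 in replicate 2, with a mean of -0.90 ± 0.54 (SD, n = 2). With positions inside the reading frame alone it was -0.28 and -1.24. Without HSC82 the order turned, to a log2 ratio of 0.44 in replicate 1 and 0.52 in replicate 2 (mean 0.48). Without both Hsp90 genes it was 0.61 and 0.03 (mean 0.32). Since the genes are not replicates of a condition and each set is named from textbook knowledge, no test was made of this difference.

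Among single genes HSC82 had the most positions per kb in each replicate, and HSP82 stood above the other 3 genes in replicate 2. HSP82 averaged 3.99 ± 2.99 positions per kb, HSP104 2.93 ± 0, HSP26 2.33 ± 1.10, HSC82 10.4 ± 8.01 and HSP60 2.33 ± 0.823 (SD, n = 2 each). From low to high, replicate 1 had HSP26 with 1.55, HSP60 with 1.75, HSP82 with 1.88, HSP104 with 2.93 and HSC82 with 4.72 positions per kb. In replicate 2 the order was HSP60 with 2.91, HSP104 with 2.93, HSP26 with 3.10, HSP82 with 6.10 and HSC82 with 16.1. The lower value of HSC82 lay below the higher value of HSP82, and the ranges of the other 4 genes overlapped, except that HSP104 at 2.93 lay just above the range of HSP60.

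**Figure D2:**
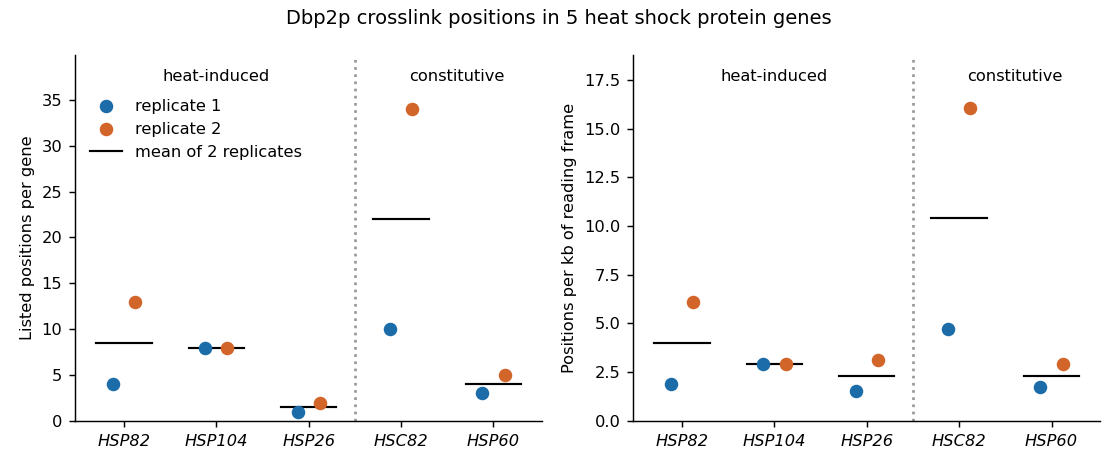
Number of listed positions (left) and positions per kb of reading frame (right) for the heat-induced genes HSP82, HSP104 and HSP26 and the constitutive genes HSC82 and HSP60, with 1 point per replicate and a bar at the mean of the 2. HSC82 has the highest point in each replicate, with 10 and 34 positions, and HSP104 has 8 in each.

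Counted by single positions, the rise between the libraries was steepest in the Hsp90 genes. The number of positions in replicate 2 over replicate 1 was 3.25 for HSP82 and 3.40 for HSC82, above the 2.09 of all positions. It was 1 for HSP104, 2 for HSP26 and 1.67 for HSP60. So 2 of 5 genes exceeded the ratio of all positions, where 36.8% of the genes listed in both replicates did. Part of the rise was neighbouring nucleotides: of the positions of these genes 62.9% stood in groups in replicate 2 and 7.69% in replicate 1. Over all protein-coding genes these shares were 53.8% and 16.7%. With each group counted once, the 5 genes had 34 sites in replicate 2 and 25 in replicate 1. From replicate 1 to replicate 2, HSP82 then went from 4 to 6 sites and HSC82 from 9 to 16. HSP60 went from 3 to 5, HSP26 from 1 to 2 and HSP104 from 8 to 5. Counted this way, the Hsp90 genes were not the steepest.

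Set against all 6002 protein-coding genes, HSC82 stood near the top. In replicate 1, 41 genes had more positions than HSC82, and in replicate 2, 27 did. For HSP82 the numbers were 243 and 146, for HSP104 66 and 405, for HSP60 405 and 806, and for HSP26 1368 and 1860. The highest number in any protein-coding gene was 42 in replicate 1 and 170 in replicate 2, and the median of listed genes was 2 in each. Per kb, HSC82 exceeded 91.5% of listed genes in replicate 1 and 96.8% in replicate 2. The other 4 genes exceeded 63.1% to 83.7% and 69.6% to 88.4%. By this share of listed genes HSP104 stood lower in replicate 2 (69.9%) than in replicate 1 (83.7%), and each of the other 4 genes stood higher. For HSP60 and HSP26 this depended on the genes compared. Among all protein-coding genes, HSP60 exceeded 85.4% per kb in replicate 1 and 80.8% in replicate 2, and HSP26 83.4% and 82.1%.

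**Figure D3:**
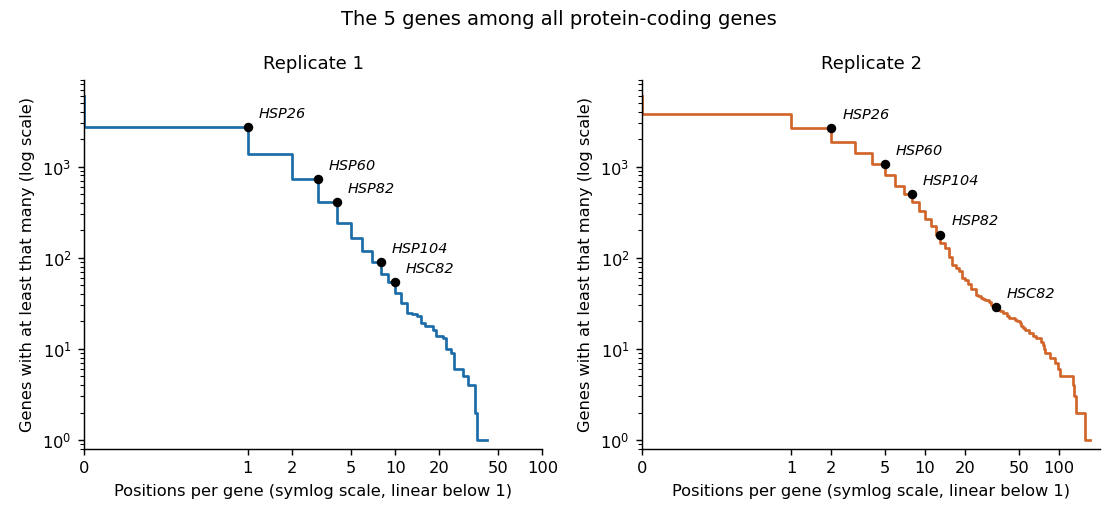
Number of protein-coding genes (vertical, log scale) with at least a given number of positions (horizontal, symlog scale), in replicate 1 (left) and replicate 2 (right), with the 5 genes marked. HSC82 is furthest right of the 5 in both panels, with 41 and 27 genes above it, and HSP26 is furthest left.

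Genes with numbers most like these were sought among all protein-coding genes, by the sum of the differences in positions over the 2 replicates. HSC82, with 10 and 34, was nearest to ACT1, the actin gene (11 and 32), and URA2, for pyrimidine synthesis (7 and 34). HSP82 had the same 4 and 13 positions as YIL108W and VMA1, a subunit of the vacuolar proton pump. HSP104 had the same 8 and 8 as ILV3, for branched-chain amino acid synthesis, and HOR7. HSP60 and HSP26 had low numbers shared by 32 and 229 other genes, among them PCM1 and RSC8 for HSP60 and ERP2 and YOR131C for HSP26, which are nearest in length.

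No nucleotide of the 5 genes was listed in both replicates, nor did any pair come within 5 nt. Among all 2243 genes listed in both, 4.77% had at least 1 nucleotide in common and 11.2% had a pair within 5 nt. Of the 26 positions of replicate 1, 6 had a position of replicate 2 within 25 nt, or 23.1%, against 21.3% over all genes listed in both. These were 4 in HSC82 and 2 in HSP104. The closest pair, 9 nt apart, lay past the stop codon of HSC82. In HSP82, HSP26 and HSP60 the closest pairs were 34, 57 and 36 nt apart. The strongest positions of the replicates were 276 nt apart in HSP82, 637 in HSP104, 162 in HSP26, 359 in HSC82 and 246 in HSP60, taking the nearest where several were tied. None lay within 100 nt, where 26.4% of genes did, and the median over all genes was 290 nt.

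The start of the reading frame was listed in most of the 5 genes. In replicate 1, 3 of them had a position in the first 100 nt (HSP104, HSP26 and HSP60), against 14.4% of listed genes. In replicate 2 all 5 had, against 15.3% of listed genes. Genes with many positions reach this window more often. Among genes with at least 5 positions the background was 40.3% in replicate 1, where 1 of the 2 such members (HSP104, and not HSC82) had a position there. In replicate 2 it was 23.6%, and all 4 such members had one. This limit of 5 positions was chosen after the values were seen. The mean share of signal in that window was 26.0% and 30.0% in the 5 genes, against 7.99% and 7.62% over all listed genes. Single genes weighed most in these means: HSP26 had 100% there in replicate 1, and HSP104 had 90.7% in replicate 2. In replicate 1 HSP60 had 20%, HSP104 10%, and HSP82 and HSC82 0%. In replicate 2 HSP82 had 20.8%, HSC82 19.8%, HSP60 12.5% and HSP26 6.25%. No position lay before a start codon, where all listed genes had 7.26% and 5.21% of their signal on average.

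Positions past the stop codon came from HSC82 and HSP60. In HSC82 they were 58 nt past the stop in replicate 1 (634530, 7.14% of signal) and 67 nt past it in replicate 2 (634539, 2.29%). In HSP60 the position 60 nt past the stop was listed in replicate 1 alone. That makes 2 of 5 genes in replicate 1, against 24.6% of listed genes, and 1 of 5 in replicate 2, against 20.5%. HSC82 was the member with such a position in both replicates, as were 9.67% of the genes listed in both. HSP82, HSP104 and HSP26 had none in either library. The mean share of signal inside the reading frame was 86.6% in replicate 1 and 99.5% in replicate 2 (93.1% ± 9.17, SD, n = 2). Over all listed genes it was 77.0% and 84.5%, where the whole span from start to stop codon was counted, introns included. The lower mean of replicate 1 came mostly from the 1 HSP60 position past the stop. HSP60 had 40% inside in replicate 1 and 100% in replicate 2, and HSC82 had 92.9% and 97.7%. HSP82, HSP104 and HSP26 had 100% in each. The untranslated regions are not annotated in the table used here, so distances to the stop codon are given instead. In replicate 2 a position of the convergent neighbour YMR187C lay 184 nt past the stop of HSC82, on the opposite strand.

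HSP82 and HSC82 can share reads, because they are near copies, and what was done with reads that map to both is not given in the sources used here. Their reading frames differ by 12 nt in length, so positions were compared by distance from the start codon and from the stop codon. In replicate 2 nucleotides 356 and 361 were listed in both genes, with A in both at 356 and G in both at 361. They held 10.4% and 4.17% of the signal in HSP82, against 5.34% and 0.763% in HSC82. The groups around them covered nucleotides 356 to 361 in each gene, with 20.8% of the signal in HSP82 and 8.40% in HSC82. A coincidence at nucleotide 1912 from the start had A in HSP82 and T in HSC82. In replicate 1 a position 568 nt before the last nucleotide of the stop codon was listed in both, with T in both, and held 25% in HSP82 and 14.3% in HSC82. The other 9 pairs of these genes gave 1 coincidence from the start and 0 from the stop, most with fewer positions to compare. That coincidence, at nucleotide 27 of HSP104 and HSC82 in replicate 2, had A in both as well. A matching distance and base therefore does not by itself mark shared reads. Assignment between the Hsp90 genes is uncertain at the nucleotides where distance and base coincide, and sharing of reads there was not tested.

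Most positions did not coincide, among them the strongest ones of replicate 2. The HSP82 group at nucleotides 1286 to 1290, with 52.1% of its signal, had no counterpart in HSC82 within 5 nt in the same library, counted from either end. The HSC82 group at 104 to 109, with 22.9%, had none in HSP82. HSP82 had fewer positions than HSC82 in each replicate, with a log2 ratio of -1.32 in replicate 1 and -1.39 in replicate 2 (mean -1.35 ± 0.05, SD, n = 2). Without the coincident positions the mean was -1.61. The closeness of the replicates depended on the HSC82 positions of smallest share in replicate 2. Without positions under 0.01 of the gene's signal, replicate 2 had 13 positions in HSP82 and 22 in HSC82. The log2 ratio was then -0.76 in replicate 2 and -1.32 in replicate 1 (mean -1.04 ± 0.40, SD, n = 2). This limit could remove positions of HSC82 in replicate 2 alone. The smallest shares in replicate 2 were 2.08% in HSP82 and 0.763% in HSC82, against 25% and 7.14% in replicate 1. The limit thus treated the genes unequally, and the size of this move was set by it.

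**Figure D4:**
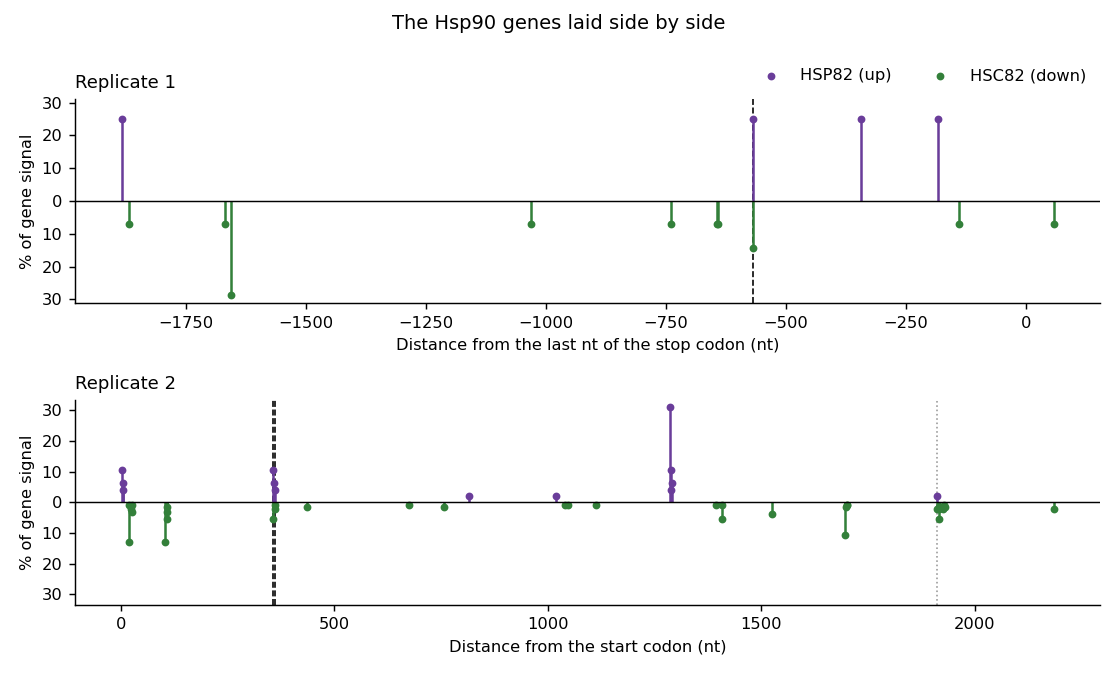
Share of signal (percent) in HSP82 (up) and HSC82 (down), in replicate 1 by distance from the last nucleotide of the stop codon and in replicate 2 by distance from the start codon (nt). Dashed lines mark nucleotides listed in both genes with the same base, and the dotted line marks nucleotide 1912, where the bases differ.

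The listed base was mostly A or T (U in the RNA). In replicate 1 the 26 positions were A at 11, T at 10, G at 4 and C at 1. In replicate 2 the 62 positions were T at 22, A at 20, G at 11 and C at 9. A made up 42.3% and 32.3%, against 49.0% and 39.5% of the positions in all protein-coding genes, and T made up 38.5% and 35.5%, against 31.4% and 29.3%. The base composition of the genes themselves was not available for comparison.

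Genes that work with these chaperones were listed at varying depth. Of 32 genes in 5 lists, 20 were listed in replicate 1 and 27 in replicate 2, or 62.5% and 84.4%, against 45.0% and 63.2% of all protein-coding genes. Of 12 co-chaperones of Hsp90, 8 and 10 were listed, with a median of 1 and 2 positions. CDC37, which brings kinases to Hsp90, had 1 and 9, and SBA1, the p23 protein that holds Hsp90 closed, had 4 and 2. PIH1 had none in either. None of the 12 reached the 10 and 34 positions of HSC82.

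Of the 5 partners in disaggregation, 4 and 5 were listed. SSE1, an exchange factor of Hsp70, had 7 and 18 positions, and YDJ1, a J protein that feeds Hsp70, had 5 and 14. HSP42, the other small heat shock protein of the cytosol, had 0 and 3, near the 1 and 2 of HSP26. Of 7 other heat-induced genes, 4 and 6 were listed. HSP30, a plasma membrane protein, had 3 and 9, and SSA4, a heat-induced Hsp70, had 4 and 4. SSA3, also a heat-induced Hsp70, had none.

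Of the 5 mitochondrial folding genes, 3 were listed in each replicate. SSC1, the Hsp70 of the matrix, had 8 and 18 positions, above the 3 and 5 of HSP60. MDJ1, its J protein, had 2 and 2, and HSP10, the lid of the Hsp60 chamber, had 1 in each. MGE1 and ECM10 had none. Of the 3 regulators, 1 was listed in replicate 1 and 3 in replicate 2. MSN2, a general stress factor, had 1 and 10 positions, its relative MSN4 had 0 and 9, and HSF1, the heat shock factor, had 0 and 9.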

How the data were processed

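The authors deposited a table for each of 2 iCLIP libraries that gives every crosslinked nucleotide with its gene and base. The values, which the authors normalized before they deposited them, are fractions of the gene's signal: tested on the tables, they sum to 1 within 1e-06 in every gene. Depth is therefore unknown, no interval could be given, and no count was inferred. Per the submitters' processing notes, CASAVA and TopHat were used with build sacCer3 (no versions given, roles not stated). Collapsing of repeated cDNAs, filters and the treatment of reads with several mapping places are not given in the sources used here.

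Genes were matched by name to a RefSeq table of assembly R64, which has the coordinates of sacCer3. The listed base was that of ATG at 58 of 58 positions in annotated start codons, so bases are those of the RNA strand. Coordinates are 1-based. Percentages, positions per kb, groups of positions at most 5 nt apart and distances were computed with Python 3.11.15, numpy 2.4.6 and pandas 2.3.3, and figures with matplotlib 3.10.9. The computation was tested on simulated data. The 5 genes, the lists and the rule for named genes (the 2 genes with the most positions and those with none in each list, and the 2 nearest genes of each member) were chosen with earlier results of these data known. HSP42, MSN4 and HSP10, outside that rule, were named after their values were seen. The coincidences between the Hsp90 genes and the ratios without HSC82 or without both Hsp90 genes were also added after the data were seen.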

Additional observations from a re-analysis of the deposited data

How the results depend on the processing

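The log2 ratio of induced over constitutive genes kept its sign and stayed within 1 SD when small fractions under 0.01 were left out, groups were counted once, the reading frame alone was used, length was ignored, HSP26 was left out or coincident positions were left out. It turned to 0.48 without HSC82 and to 0.32 without both Hsp90 genes, which leaves fewer genes. Leaving out a replicate gave -1.28 to -0.52. The log2 ratio of HSP82 over HSC82 moved by more than its small SD, to -1.04 without small fractions (-1.32 in replicate 1 and -0.76 in replicate 2), -1.29 with groups counted once, -1.26 in the reading frame alone and -1.61 without coincident positions, always below 0. Leaving out a replicate gave -1.39 to -1.32. The limit on small fractions could remove positions of HSC82 in replicate 2 alone. Coincident positions here were those at the same distance in both Hsp90 genes, whatever the base. The share of signal in the reading frame ranged over 86.6% to 99.5%, and the share of list genes listed over 62.5% to 84.4%, between the replicates. No nucleotide was common to the replicates under any setting run. With groups counted once the mean number of positions was 5 in HSP82 and 12.5 in HSC82, against 8.5 and 22. No paired analysis was possible because there is 1 group and no comparison between samples. The depth behind each value is unknown. HSP26 and HSP60 rest on 1 to 5 positions, and HSP82 rests on 4 in replicate 1.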
